A study of Homo sapiens with 3 samples.

Results

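The metallothionein genes lie in a row on the long arm of human chromosome 16, and PRCC-TFE3 ChIP-seq peaks were examined across the stretch that holds MT3, MT2A, MT1E, MT1M, MT1A, MT1F, MT1G, MT1H and MT1X. All peaks whose summit or centre fell in chr16:56590000-56730000 of the hg19 build, a window of 140 kb, were taken without regard to their height. The window held 20 of 109205 narrowPeak peaks in replicate 1 and 19 of 81300 in replicate 2. A second kind of peak list, deposited in BED format with a tag count for each peak, had 16 of 84248 peaks in the window in replicate 1 and 13 of 63535 in replicate 2. The window's place in hg19 is that of the rule that chose it, since no hg19 annotation was used here. The peaks are therefore described by position, and none is assigned to a single gene.

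The cells were HK-2, an established human cell line from proximal tubule epithelium of the kidney, carrying HA-PRCC-TFE3 under a doxycycline-inducible (Tet-On 3G) promoter. PRCC-TFE3 is the fusion protein of a translocation renal cell carcinoma, and the HA tag is the epitope used to precipitate it. All 3 libraries, 2 HA ChIP replicates and 1 input DNA, came from cells given doxycycline at 0.2 µg/mL for 24 h, so every group shared the induction and no uninduced or untagged control was analysed here. The ChIP libraries held 12235754 and 7418533 tags and the input library 21698071 as recovered from the replicate 1 list; replicate 1 was thus the deeper of the pair. With 2 libraries of 1 group no test between conditions exists, and the intervals given cover counting error alone.

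Metallothioneins are small cysteine-rich proteins that bind zinc and copper and sequester cadmium, and the proximal tubule is a main site of cadmium and metallothionein accumulation in the kidney. Transcription of the inducible MT1 and MT2A genes is driven by the zinc-sensing factor MTF1, which binds metal response elements with cores such as TGCACNC upstream of their start sites. MT3 is known mainly from brain. TFE3 belongs to the MiT/TFE family of basic helix-loop-helix factors, which bind the E-box CACGTG and are known for control of lysosomal and autophagy genes.

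In the RefSeq table of GRCh38 the members ran in the order MT3, MT2A, MT1E, MT1M, MT1A, MT1F, MT1G, MT1H and MT1X, with the other metallothionein genes and pseudogenes MT1L, MT1JP, MT1DP, MT1CP, MT1B and MT1IP between them and MT4 before MT3. MT1G was the one member annotated on the minus strand. In the GENCODE transcripts with the most cysteine codons, MT2A, MT1E, MT1M, MT1A, MT1F, MT1H and MT1X each encoded 61 residues of which 20 were cysteine. MT1G encoded 62 residues and MT3 68, also with 20 cysteines. That transcript is the canonical one in coding sequence for every member but MT1E, whose canonical transcript encoded 127 residues with 14 cysteines and was at most 41.4% identical to the other members. The transcript rule was chosen after this was seen. The coding sequences of the MT1 members were 88.7% to 94.6% identical to one another (median 91.5%, 21 pairs), and MT2A was 89.8% to 93.7% identical to them. MT3 stood apart, at 73.4% to 76.3% identity with the other 8 members. Between 0% (MT3) and 19.7% (MT1G) of the 50-base stretches of a member's transcript recurred in the transcript of another metallothionein gene. How the authors' alignment treated tags that match several copies is not given in the sources used here, so tag counts over near-identical coding stretches are uncertain.

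Upstream sequences are shown to place the metal response cores. They are the 250 bases before the start sites of MT2A, MT1H and MT1X, the 3 members that the RefSeq promoter table (GRCh38.p14) held. None of these stretches held the E-box CACGTG. Capitals mark every TGCACNC or TGCGCNC on either strand, and no match overlapped another. These GRCh38 positions must not be compared with the hg19 peak positions.
MT2A (chr16:56608334-56608583, plus strand): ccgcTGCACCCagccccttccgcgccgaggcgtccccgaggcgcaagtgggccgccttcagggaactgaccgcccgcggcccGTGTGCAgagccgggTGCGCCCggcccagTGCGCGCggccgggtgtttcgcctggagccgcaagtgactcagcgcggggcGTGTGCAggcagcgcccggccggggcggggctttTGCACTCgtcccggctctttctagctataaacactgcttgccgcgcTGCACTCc
MT1H (chr16:56669564-56669813, plus strand): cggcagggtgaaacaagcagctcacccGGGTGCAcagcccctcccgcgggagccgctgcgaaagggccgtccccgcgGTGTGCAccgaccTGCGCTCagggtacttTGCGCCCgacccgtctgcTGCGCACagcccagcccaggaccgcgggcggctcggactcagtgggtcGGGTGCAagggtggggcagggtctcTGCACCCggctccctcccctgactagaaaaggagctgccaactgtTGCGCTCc
MT1X (chr16:56682220-56682469, plus strand): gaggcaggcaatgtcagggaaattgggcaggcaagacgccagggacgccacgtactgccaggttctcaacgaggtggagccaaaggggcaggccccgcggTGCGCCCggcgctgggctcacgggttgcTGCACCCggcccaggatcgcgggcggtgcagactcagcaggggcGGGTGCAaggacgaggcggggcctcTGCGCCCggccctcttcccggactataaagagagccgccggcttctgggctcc
From 250 bases before to 50 after the start site, MT2A and MT1H each held 8 such cores and MT1X held 4. Among all 35116 promoters of the table, 29.6% held at least 1 core and 2.3% held 3 or more. MT4 and MT1B, metallothionein genes that are no members, held 3 each. CACGTG was absent from the MT2A and MT1X promoters and was found once in MT1H, its first base at position 12 counted from the start site as 1. Of all promoters 7.26% held it. The longer form TCACGTGA, held by 0.98% of promoters, was in none of the 3. The MT1H match is printed here with the E-box in capitals.
MT1H (chr16:56669815-56669840, plus strand): ccacgccctcCACGTGttccactgcc
Of 12 genes of metal transport and the metal, oxidative and glucocorticoid responses, 11 were in the table, all but HMOX1. A core was found in 5 of them, the zinc exporter SLC30A1 (2 cores), the NRF2 inhibitor KEAP1 (2), the glutathione synthesis genes GCLC (2) and GCLM (1) and the glucocorticoid receptor NR3C1 (1). None of the 11 held CACGTG. The zinc sensor MTF1, the zinc transporters SLC39A8, SLC39A10, SLC30A5 and SLC30A10 and the antioxidant factor NFE2L2 held no core. A match of letters is not a bound site, and an absent match says only that the letters are not in the window searched.

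Peaks were closer packed in the metallothionein window than in the 500 kb on either side of it. The window held 14.3 narrowPeak peaks per 100 kb in replicate 1 and 13.6 in replicate 2. The flank before it held 4.2 and 3 per 100 kb, and the flank after it 8.8 and 7.8. Relative to both flanks the density was 2.2-fold higher in replicate 1 and 2.51-fold higher in replicate 2 (mean 2.36 ± 0.22, SD, n = 2). The sides were unequal, since the flank after the window was itself denser than the flank before it in both replicates. The window was uneven too, since 8 of its peaks in each replicate lay in a single stretch of 9.1 kb and 12.5 kb, described below. The rest of the window held 12 and 11 peaks. Its density was not calculated, so the higher density is not shown to hold without that stretch. When chromosomes 1 to 22 and X were divided into 21691 tiles of 140 kb, the median tile held 3 peaks in replicate 1 and 2 in replicate 2, and 3.04% and 1.6% of tiles held at least as many peaks as the window. The window was thus among the denser stretches but was exceeded or matched by 660 and 346 tiles. The tiles were not filtered for assembly gaps or gene content, so these shares are no comparison with stretches like the window. In the BED lists the density ratio was 1.97 and 2.06.

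**Figure D1:**
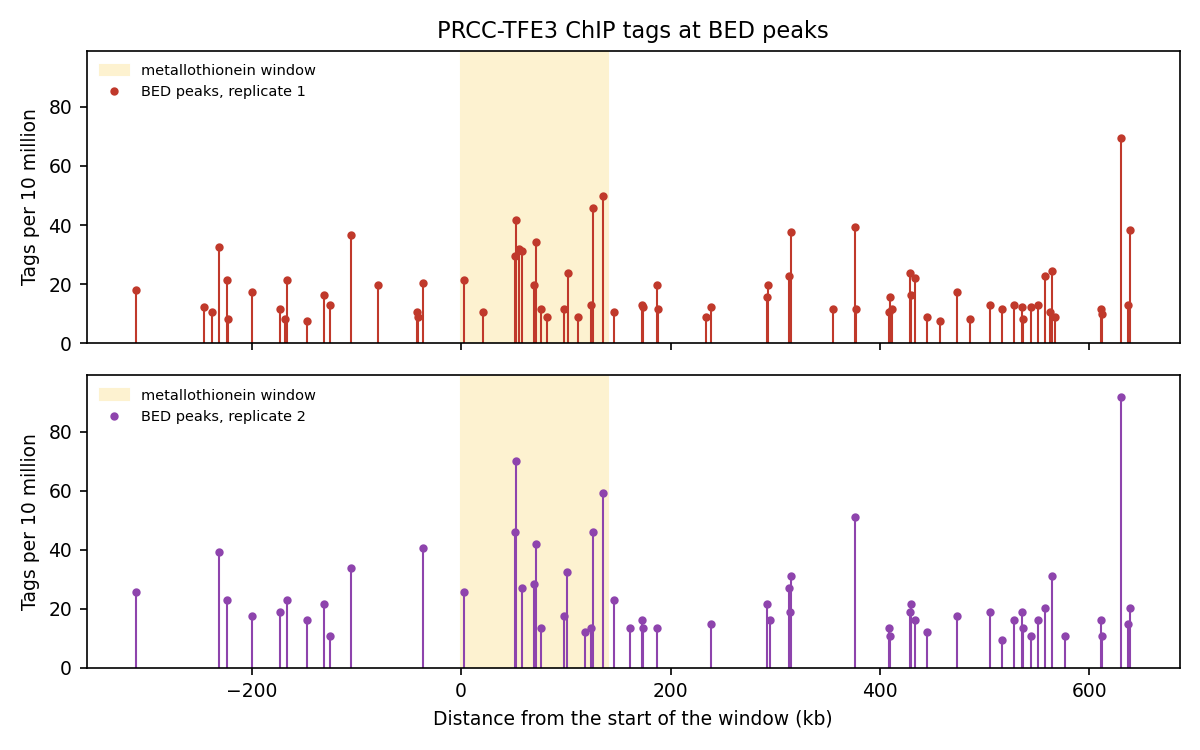
Tags per 10000000 library tags (y axis) at each BED peak against the distance of its centre from the start of the metallothionein window in kb (x axis), for replicate 1 (top) and replicate 2 (bottom), with the window shaded. The highest window peaks reached 49.9 in replicate 1 and 70.1 in replicate 2, and the highest peak of the flanks reached 69.5 and 91.7.

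Window peaks were also taller than those around them. The median summit enrichment was 12.03-fold in replicate 1 (range 4.41 to 28.3) against 7.18-fold in the flanks and 7.49-fold over the genome. In replicate 2 the median was 10.8-fold (range 3.76 to 29.5) against 7.70-fold and 7.32-fold. The median peak width was 387 bp and 353 bp in the window and 288 bp and 295 bp in the flanks. The enrichments lay within the range of the flanks, while the widest window peaks, of 1240 bp and 2092 bp, exceeded the widest of the flanks, of 633 bp and 624 bp. The tallest peaks of the region stood in the flank after the window, at 43.3-fold and 40.4-fold.

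The 14 regions found in both replicates lay between 2.4 and 136.1 kb from the window's start, with none between 2.4 and 50.2 kb. The 8 that ranked highest by the smaller of their tag counts are given in order of position. Positions are the outer bounds of the overlapping narrowPeak peaks in hg19. The first, chr16:56592267-56592541, stood alone 2.4 kb from the start of the window, with 26 tags in replicate 1 and 19 in replicate 2 and summit enrichments of 14.4-fold and 12.8-fold. Next came the widest region, chr16:56640462-56642708, of 2247 bp, which was 2 peaks in replicate 1 and 1 peak in replicate 2. Its highest BED peak held 51 and 52 tags, and its highest summit rose 23.5-fold and 29.5-fold. It was the strongest region of the window in replicate 2 but not in replicate 1.

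Farther into the window, chr16:56648402-56648861 held 38 and 20 tags with enrichments of 19.6-fold and 13.4-fold. A pair of regions followed less than 2 kb apart. The weaker of them, chr16:56659441-56659767, held 24 and 21 tags with 11.97-fold and 11.54-fold enrichment. The stronger, chr16:56661144-56661588, held 42 and 31 tags with 22.3-fold and 21.0-fold enrichment. At chr16:56691209-56691959 the counts were 29 and 24 and the enrichments 15.5-fold and 16.7-fold.

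The last pair lay near the end of the window and was the tallest in replicate 1. The region chr16:56715842-56716471 held 56 and 34 tags, with 27.8-fold and 23.1-fold enrichment. The region chr16:56725781-56726385 held 61 and 44 tags, the highest count of the window in replicate 1, with 28.3-fold and 26.1-fold enrichment. The other 6 shared regions had a lower summit enrichment, taken as the lower of the 2 replicates, of at least 5.70-fold. Among these 6, chr16:56645377-56645904 rose 19.1-fold and 14.1-fold but had a BED peak in replicate 1 alone, with 39 tags.

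**Figure D2:**
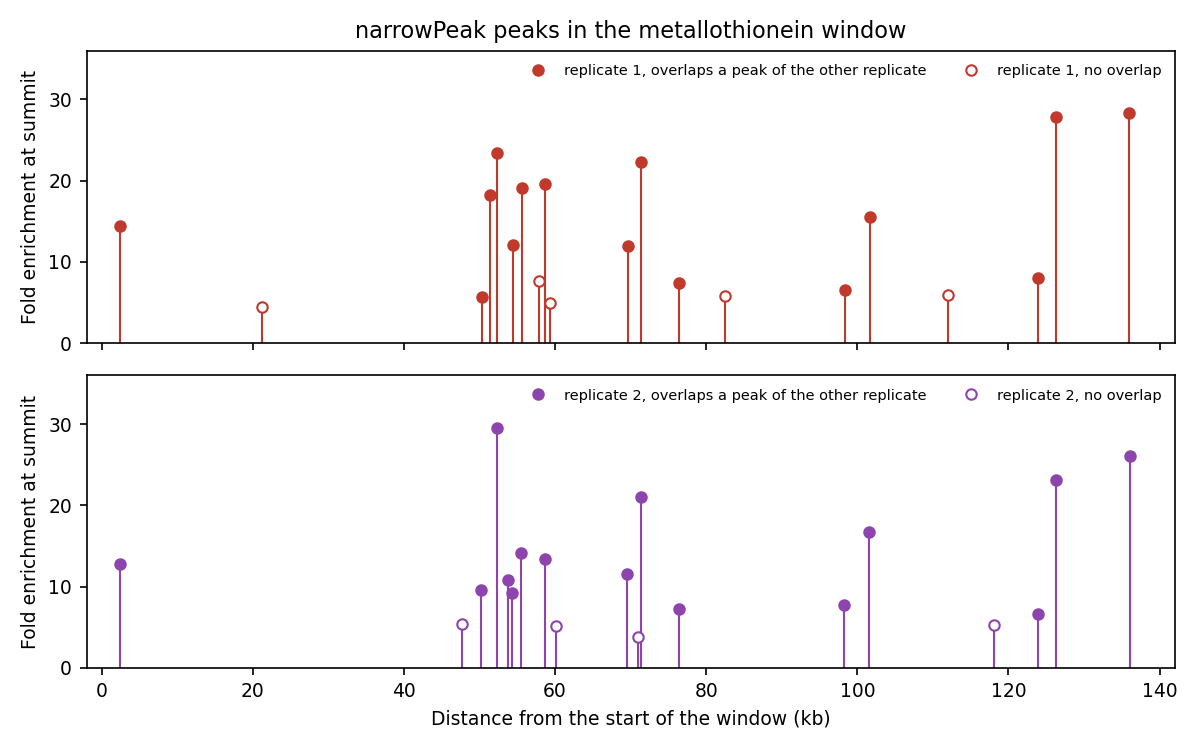
Summit enrichment (y axis, fold over background as the peak caller gave it) of each narrowPeak peak against the distance of its summit from the start of the window in kb (x axis), for replicate 1 (top) and replicate 2 (bottom). Filled points overlap a peak of the other replicate by at least 1 bp and open points do not; the open points reach 7.66-fold in replicate 1 and 5.41-fold in replicate 2.

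Neighbouring summits in the window were a median of 3410 bp apart in replicate 1 and 2866 bp in replicate 2. In the flanks the medians were 7244 and 7433.5 bp, and over the genome 8490.5 and 10869 bp. The share of neighbours under 2 kb apart was 31.6% (6 of 19 gaps) and 33.3% (6 of 18) in the window. That share was 31.7% and 30.8% in the flanks and 23% and 20.9% over the genome, so close pairs in the narrowPeak lists were about as frequent in the window as beside it. In the BED lists the share was lower in the window, at 13.3% and 16.7% against 23.2% and 18.6% in the flanks, and the median spacing was 5974 and 6120.5 bp against 7601 and 11513 bp. The spacing within the window was uneven. The longest peak-free gap was 29131 bp in replicate 1 and 45208 bp in replicate 2, and lay between the first peaks of the window and a dense stretch.

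That dense stretch, a run of 8 peaks each less than 5 kb from the next, extended from 50.3 to 59.4 kb after the window's start in replicate 1 and from 47.6 to 60.2 kb in replicate 2. It covered 9.1 kb and 12.5 kb and so held 8 of the window's 20 and 8 of its 19 peaks. The flanks held no run longer than 4 peaks. Over the genome, 3.48% of replicate 1 peaks and 1.93% of replicate 2 peaks belonged to runs of at least 8. The limits of 5 kb and 8 peaks were set after these positions were seen, so the run is a description. The run contained peaks of every height, from 4.94-fold to 23.5-fold in replicate 1 and from 5.13-fold to 29.5-fold in replicate 2.

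Within the window, the 2 kinds of peak list differed most in the dense stretch. In the rest of the window, 12 of the 12 narrowPeak peaks of replicate 1 and 10 of the 11 of replicate 2 had a BED peak over them in their own library. Inside the stretch, 4 of 8 and 2 of 8 did. Flank peaks could lack a BED peak too, as at chr16:56333132-56333314 in replicate 1 and chr16:56458889-56459079 in replicate 2. The share of such peaks was not calculated for the flanks or the genome. The peaks without a BED partner inside the stretch reached 12.1-fold in replicate 1 and 14.1-fold in replicate 2, above several window peaks that had one. The lowest ratio of a peak's tags to the local tag level was 4 in both BED lists over the genome, so no listed peak stood less than 4-fold above its surroundings.

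The local tag level, the level around a peak per peak width, was highest in the same stretch. Tags of neighbouring peaks may be part of that level, so in a run of close peaks it is not independent of their spacing. At the BED peaks of the stretch the local level was 4.17 to 7.28 tags per 10000000 in replicate 1 and 3.74 to 7.94 in replicate 2. At the other window peaks it was 0.50 to 2.53 and 0.58 to 2.83. In the flanks it reached no more than 2.31 and 2.72, with medians of 1.21 and 1.23. The genome's medians were 1.198 and 1.285 and its 99th percentiles 4.33 and 4.88. Above that percentile stood 3 window peaks in replicate 1 and 2 in replicate 2, and no flank peak did. Enrichment over the local level was 4.38 to 7.45 in the stretch in replicate 1 and 5.77 to 9.20 in replicate 2, where the peaks held 36 to 51 and 20 to 52 tags. The lowest value of the window was there in both replicates, but the ranges overlapped those outside the stretch, which began at 5.16 and 5.84. Whether the high local level kept peaks of the stretch from the BED lists was not tested.

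**Figure D3:**
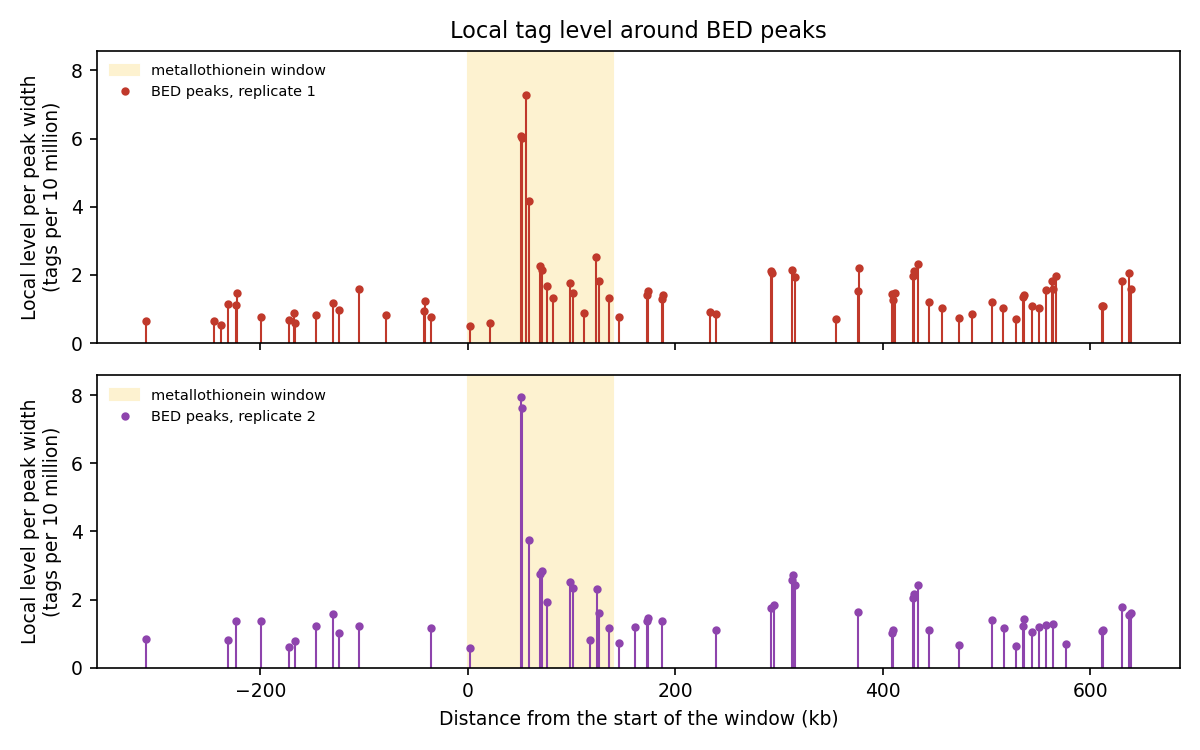
Local tag level per peak width in tags per 10000000 (y axis) around each BED peak against the distance from the start of the window in kb (x axis), for replicate 1 (top) and replicate 2 (bottom), with the window shaded. The level rises to 7.28 and 7.94 in the dense stretch and stays at or below 2.31 and 2.72 in the flanks.

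BED peaks of the window held a median of 27.5 tags in replicate 1 (11 to 61) and 21 in replicate 2 (9 to 52). The flanks had medians of 16 and 13 and the genome 17 and 13. The ratio of the window's median to that of the flanks was 1.72 and 1.62 (mean 1.67 ± 0.073, SD, n = 2). Per 10000000 library tags the window medians were 22.5 and 28.3. Summed over all BED peaks, the window held 481 tags in replicate 1 (95% Poisson interval 439 to 526) and 321 in replicate 2 (287 to 358). Per 100 kb this came to 281 and 309 tags per 10000000, against 97.4 and 96.0 in the flanks, where the 58 and 45 peaks covered 12064 and 9540 bp and the window's covered 3328 and 2756 bp.

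Few input DNA tags lay under these peaks, as under peaks elsewhere. Over all BED peaks of the window the input held 15 tags at the positions of replicate 1 and 9 at those of replicate 2. No input tag was found at 4 of 16 and 6 of 13 peaks, and none had more than 3. These shares of 25% and 46.2% compare with 39.7% and 42.2% in the flanks and 46.1% and 46.9% over the genome. The window's share was thus below that of the flanks in replicate 1 and above it in replicate 2. With 16 and 13 peaks and no interval calculated, neither difference is read further. The dense stretch was no exception, since its BED peaks had 0 or 1 input tags each. The median enrichment over input was 48.8-fold in replicate 1 and 117-fold in replicate 2, values that rest on these few input tags and on the authors' handling of zeros. None of the 286 peaks called in the input library lay in the window or the flanks, and the nearest was 9051 kb away.

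Replicate agreement in the window could not be told from that around it. Of the window's narrowPeak peaks, 15 of 20 in replicate 1 (75%; exact 95% interval 50.9 to 91.3) overlapped a peak of replicate 2 by at least 1 bp. In the other direction 15 of 19 did (78.9%; 54.4 to 93.9). The flanks gave 72.3% and 87.0% and the genome 65.3% and 88.5%, all within these intervals. In the BED lists the shares were 75% and 92.3% in the window and 70.7% and 91.1% in the flanks. Merging overlapping peaks gave 23 regions, of which 14 were in both replicates (60.9%; 38.5 to 80.3), against 47 of 72 in the flanks (65.3%). Of the 14, 11 also had BED peaks in both replicates, and in 12 the highest summits lay within 100 bp.

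The 5 regions found in replicate 1 alone had enrichments of 4.41 to 7.66-fold and the 4 in replicate 2 alone of 3.76 to 5.41-fold. The highest of them stood above the genome's median and above the lower enrichment of several shared regions. In the BED lists, 4 peaks of replicate 1 had no partner in replicate 2. Of these, 3 had 11 to 13 tags, which at the depth of replicate 2 would be 6.67 to 7.88 tags, close to the 6 tags of the lowest peak in that list. They were not detectable with certainty at that depth, and their absence from the list does not show that binding was absent. The fourth, with 39 tags at position 56645567 in the dense stretch, did overlap a narrowPeak peak of replicate 2. In the other direction, 1 BED peak of replicate 2, at position 56708038, had no partner in the deeper replicate 1. It held 9 tags, which at the depth of replicate 1 would be 14.8, above the 7 tags of the lowest peak in that list. It stood 14.8-fold over its local level. Over input, with 3 input tags, it stood 8.77-fold, the lowest such value among the window's BED peaks of either replicate. Its narrowPeak enrichment was 5.31-fold.

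Tag counts of matched peaks ran in parallel between the replicates. The 12 BED peaks matched one to one held 407 tags in replicate 1 and 312 in replicate 2, so replicate 2 gave 43.4% of them (exact 95% interval 39.7 to 47.1). Replicate 2 supplied 37.7% of the tags of both libraries, less than the lower bound. The share was also above it in matched peaks of the flanks (41.0%; 38.6 to 43.4) and of the genome (39.8%), and the window's interval includes the flanks' value. Matching keeps only peaks listed in both replicates and so left out 4 window peaks of replicate 1 and 1 of replicate 2. Over all its BED peaks the window held 481 tags in replicate 1 and 321 in replicate 2. Whether matching raised the share of replicate 2 was not tested. Replicate 2 gave more than 37.7% in all 12 matched window peaks but 1, the peak at 58.6 kb with 38 and 20 tags. Taken singly, 11 of the 12 peaks had an interval that included 37.7%. The exception was the peak in the widest region, with 51 and 52 tags (50.5%; 40.5 to 60.5), which lay in the dense stretch. Matched peak centres were a median of 27.5 bp apart, and at most 160 bp.

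**Figure D4:**
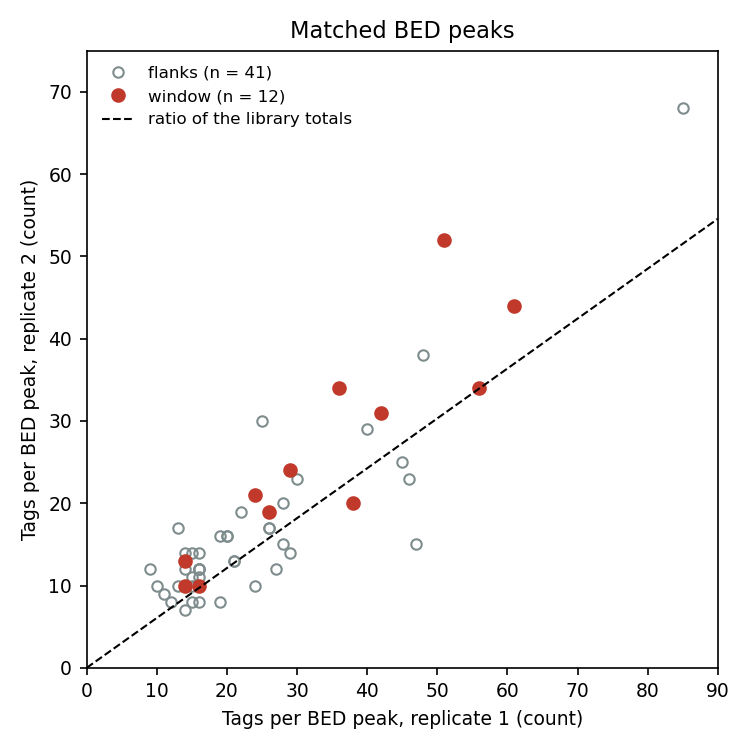
Tags in replicate 2 (y axis, count) against tags in replicate 1 (x axis, count) for BED peaks matched between the replicates, 12 in the metallothionein window (filled) and 41 in the flanks (open), with a dashed line at the ratio of the library totals. Most window points lie on or above the line, and the point farthest above it is the peak with 51 and 52 tags.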

How the data were processed

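HA ChIP-seq peaks of induced HK-2 cells were read from the lists that the authors deposited for each replicate and for input DNA. Cross-linked chromatin was digested with micrococcal nuclease before precipitation. The methods name MACS in Strand NGS for peak calling against input, and the submitters' processing notes name the hg19 build. Aligner and duplicate handling are not given in the sources used here, and duplicates would raise tag counts.

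The deposited narrowPeak lists give a fold ratio at the summit, −log10 p and q values and a score. The deposited BED lists give tag counts, a signal normalized to 10000000 library tags, ratios over input and local level with p-values, and a score. Their header names are displaced, so columns were read by position from the values. Their layout is that of a HOMER peak table, a program the methods do not name. The narrowPeak and BED lists may therefore come from different peak callers. Library totals were the tags divided by that signal, the local level was tags divided by the local ratio, and input tags came from the input ratio. Of the input tag counts, 100% were whole within 0.1 tags. Peaks read as having no input tag passed that check by definition, and the value of a single tag was estimated from the same ratios. Lists were compared with pandas 2.3.3 and scipy 1.17.1 (overlap of at least 1 bp, mutual best match for BED peaks, Clopper-Pearson and Poisson intervals), after the code was tested on simulated data. No test was made.

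Regions are named where they were in both replicates and ranked in the top 8 by the smaller of their tag counts. The members, the gene lists and the window were chosen with earlier results of these data known. The 2 kb and 5 kb limits, the run of 8, the count of 3 or more cores, the local level and the coding comparisons were added after the files were seen. The alternatives were the other peak list, a q value below 1e-05, 250 kb flanks, lists of equal length, stricter overlaps and each replicate alone.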

Additional observations from a re-analysis of the deposited data

How the results depend on the processing

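Of 31 alternative values over 8 results, 4 moved by more than the spread between replicates and kept their direction. The 6 values from a single replicate could not move by more than that spread with 2 replicates, and are no sign of stability. That spread existed only for the density ratio, the spacing and the tag ratio. Peak numbers, overlap shares and the tag share were not held to it. Over the alternatives the peak number ranged from 16 to 20 in replicate 1 and from 13 to 19 in replicate 2. The overlap share ranged from 65% to 83.3% and from 68.4% to 93.8%. The mean density ratio of window to flanks, 2.36, was 2.02 with the BED lists and 2.0001 with flanks of 250 kb. The median spacing, 3138 bp as the mean of the replicates, was 6047 bp with the BED lists, which hold fewer peaks of the dense stretch. The tag ratio to the flanks, 1.67, was 1.56 with flanks of 250 kb. For these values the cause was not tested. Leaving out either replicate gave density ratios of 2.20 to 2.51, spacings of 2866 to 3410 bp and tag ratios of 1.62 to 1.72. The limit of 20 tags over both replicates removed none of the 12 matched pairs, and cutting the lists to equal length left the replicate 2 list whole, so the tag share and the replicate 2 peak number could not change there. No paired analysis was possible because the 2 ChIP libraries form 1 group and no result comes from a test. Depth limits peaks of about 10 tags, which the shallower replicate 2 could miss. Replicate 1, which lacked the peaks found in replicate 2 alone, was the deeper library.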
